A study of Arabidopsis thaliana with 12 samples.

Results

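The cellulase genes GH9B8 (AT2G32990), GH9B11 (AT2G44560), GH9B12 (AT2G44570) and GH9B16 (AT4G38990) of Arabidopsis thaliana were followed on 1-channel arrays. They were selected by family and by probe, as the genes of glycosyl hydrolase family GH9 that had a probe of their own, and they are 4 of the 691 genes with such a probe. The array table held 3439 probes, of which 692 were annotated to 1 gene. The family was picked out with its fold changes between the groups already known, so those fold changes are given here as a description. Whether they passed the threshold of the fit over all probes is stated beside the share of all probes that did, and nothing is read from it. All samples were wild-type plants of the ecotype C24, and total RNA was measured. Of the 12 samples, 6 came from plants grown under PSI-specific light, which mainly drives photosystem I, with no inhibitor (PSI light), and 6 from plants under the same light that were also given DCMU. DCMU is a herbicide that blocks the transfer of electrons out of photosystem II. Dose, duration, plant age and tissue are not given by the labels. With no tissue named, none could be checked against markers. In RNA from whole samples, fewer cells of a type and less RNA per cell cannot be told apart.

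GH9 enzymes cut the beta-linked glucan chains of cellulose and related wall polymers at internal bonds. In plants they fall into class A, whose members are anchored in membranes and include KORRIGAN, which is needed for cellulose synthesis, class B, secreted enzymes with a catalytic domain, and class C, which carry a carbohydrate-binding module as well. As a family they are known for roles in cell elongation, abscission and the remodelling of growing walls. All 4 genes with a probe of their own belong to class B. The TAIR10.1 gene table held 25 GH9 genes. Of these, 12 had at least 1 probe, 8 of them only on probes annotated to several genes, and 13 had none. In the gene order of that table GH9B11 and GH9B12 are direct neighbours in a run of 4 GH9 genes, and GH9B16 lies in a run of 3, whereas GH9B8 has no GH9 gene beside it.

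The deposited values were relative intensities from 0 to 100, with the brightest probe of each column at 100. The column median lay between 0.542 and 0.584 for PSI light and between 0.386 and 0.504 for DCMU, and 108 to 141 probes per column stood at 0. Arrays have no read depth, and their number limits the precision. Columns numbered 1 and 2, 3 and 4, and 5 and 6 of a group correlated at a Spearman's rho of at least 0.975 and at most 0.991. Between the remaining columns of the same group rho ran from 0.920 to 0.959. Between columns of the same number in the 2 groups it ran from 0.730 to 0.749. Columns 1 and 2, 3 and 4, and 5 and 6 of a group were averaged as pairs. Each pair was counted as 1 sample, so n = 3 per group, although the labels do not state that the columns are duplicates. Whether samples are separate plants or cultures is not labelled either, so the spread between them may be technical.

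All 4 GH9 genes had lower intensity with DCMU than in PSI light. The difference was 2.89-fold for GH9B8, 2.31-fold for GH9B16, 1.85-fold for GH9B12 and 1.6-fold for GH9B11 after quantile normalisation. For each gene, every one of the 6 columns with DCMU lay below every one of the 6 in PSI light, before and after normalisation, as was the case for 24.6% of all probes. In the fit of all probes with limma, 4 of the 4 passed an adjusted p of 0.05, all lower with DCMU. In that fit 43.1% of all probes passed in either direction and 25.0% passed as lower. Since this contrast was known when the genes were picked, nothing is read from their count.

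GH9B8 had the largest fold change of the 4 after quantile normalisation, though its lead over GH9B16 depended on how the floor was treated. Its deposited intensity in PSI light ran from 0.318 to 0.585 with a median of 0.458, and with DCMU from 0.0973 to 0.172 with a median of 0.130. The highest column with DCMU was thus below the lowest in PSI light. After normalisation its log2 intensity in the 3 averaged pairs was -1.28, -1.01 and -1.64 in PSI light and -2.92, -2.78 and -2.82 with DCMU. The pairs in PSI light were further apart than those with DCMU. The means were -1.31 ± 0.31 and -2.84 ± 0.07 (SD, n = 3), a log2 fold change of -1.53 (SE 0.17). Of the 3439 probes, 49 had a lower log2 fold change. The DCMU values lay close to the floor of -3.19, below which intensities were not followed, though no column of this gene was at it. Adding the floor as an offset instead gave -1.04, beside -1.03 for GH9B16.

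GH9B16 was next. Its deposited intensity had a median of 1.18 in PSI light (0.990 to 1.29) and a median of 0.403 with DCMU (0.253 to 0.548). The spread with DCMU was the widest of the 4 genes on the log2 scale, with columns 5 and 6 the lowest. Its normalised log2 intensity was 0.08, -0.17 and 0.11 in the averaged pairs of PSI light and -0.92, -1.16 and -1.53 with DCMU. The means were 0.00 ± 0.15 and -1.21 ± 0.31 (SD, n = 3), a log2 fold change of -1.21 (SE 0.18). A lower log2 fold change was found for 155 probes.

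GH9B12 and GH9B11, the neighbouring genes, had smaller differences. GH9B12 had a deposited intensity of 0.513 to 0.709 in PSI light (median 0.590) and of 0.235 to 0.323 with DCMU (median 0.256). The averaged pairs of GH9B12 stood at -1.12, -0.75 and -0.85 on the log2 scale in PSI light and at -1.70, -2.05 and -1.64 with DCMU. Its log2 fold change was -0.89 (SE 0.16), from a mean of -0.91 ± 0.19 to -1.80 ± 0.22 (SD, n = 3).

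For GH9B11 the deposited intensity ran from 0.909 to 1.26 in PSI light (median 1.08) and from 0.432 to 0.620 with DCMU (median 0.479). Its averaged pairs were at -0.08, -0.05 and -0.18 on the log2 scale in PSI light and at -0.67, -1.0 and -0.68 with DCMU. The means were -0.10 ± 0.07 and -0.78 ± 0.19 (SD, n = 3), a log2 fold change of -0.68 (SE 0.11). Columns 3 and 4 with DCMU were the lowest for both neighbouring genes after normalisation. Lower log2 fold changes were found for 412 probes in the case of GH9B12 and for 692 in that of GH9B11.

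**Figure D1:**
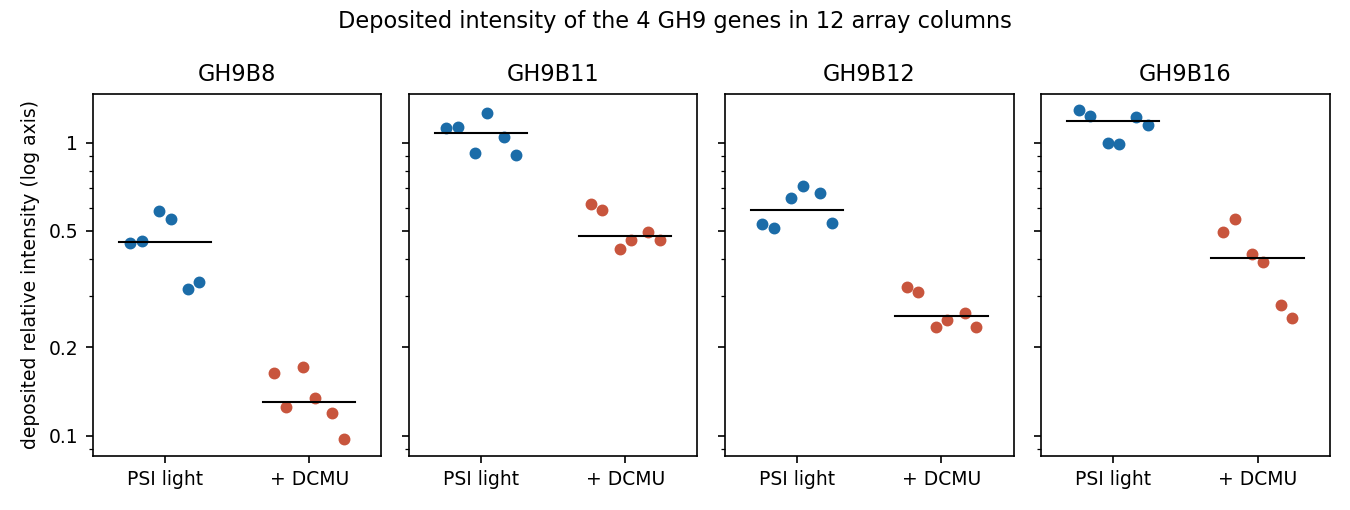
Deposited relative intensity (log axis) of the 4 GH9 genes in each of the 12 columns, with the groups on the x axis, pairs of columns set side by side and a black line at the median of 6 columns. For each gene all 6 columns with DCMU lie below all 6 in PSI light, as for 24.6% of all probes, with medians of 0.130 against 0.458 for GH9B8 and of 0.479 against 1.08 for GH9B11.

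As a family, the 4 genes had a mean log2 intensity of -0.60, -0.49 and -0.64 in the averaged pairs of PSI light and of -1.55, -1.75 and -1.67 with DCMU. The group means were -0.58 ± 0.08 and -1.66 ± 0.10 (SD, n = 3), a difference of 2.11-fold. The median log2 fold change of the 4 was -1.05, beside -0.06 for all probes and -0.06 for the 692 probes with 1 gene. The spread of each gene between averaged pairs of a group was unremarkable for this array: the pooled SD was 0.14 for GH9B11, 0.21 for GH9B12, 0.23 for GH9B8 and 0.24 for GH9B16, and 0.23 for the median probe.

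The size of the change was not the same for each gene in this fit, and the differences were not tested. The log2 fold change of GH9B8 minus that of GH9B11 was -0.85, and that of GH9B11 minus that of GH9B16 was 0.53. In both cases the log2 ratio of the 2 probes did not overlap between the groups over the averaged pairs. For the other 4 of the 6 pairings of genes it did overlap. How often the ratio of any 2 probes of the array is without overlap was not counted. Nothing is therefore read from these pairings, and the genes were picked with this contrast known. Correlations of the deviations from the group means rest on 6 averaged pairs less 2 group means. They are therefore imprecise, and they were not compared with those of other probes. The deviations of GH9B11 and GH9B12 had a correlation of 0.71, those of GH9B8 and GH9B16 of -0.49. The columns share their scaling, and the probes of GH9B11 and GH9B12 are numbered 1490 and 1502, and the part of either in this likeness was not tested.

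Beside these, 7 probes were annotated to GH9 genes but to more than 1 gene each, and they were lower with DCMU too. All 7 passed the threshold as lower, beside the 25.0% of all probes, and in all 7 the 3 averaged pairs with DCMU lay below those in PSI light, as in 31.8% of all probes. These values come from the same contrast and are likewise a description. Their log2 fold changes ran from -2.01 to -0.61. Probe 1466, annotated to the 4 genes of the run that holds GH9B11 and GH9B12, had a log2 fold change of -1.36 (SE 0.14), further from 0 than the -0.68 and -0.89 of the genes' own probes. Probe 1478, annotated to the other two genes of that run, stood at -0.89 (SE 0.05).

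Probe 3160, which GH9B16 shares with the other two genes of its run, had a log2 fold change of -1.32 (SE 0.16), beside -1.21 for the probe of GH9B16 alone. Probes 2019 and 2884 are annotated to the same pair of class B genes and stood at -1.33 (SE 0.24) and -0.61 (SE 0.17). The difference between them was not tested. Probe 1540, of a pair of class C genes, stood at -0.83 (SE 0.09), but 5 of its 6 columns with DCMU were at the floor, which limits both its fold change and its spread. The largest difference was that of probe 2890, which is annotated to a pair of GH9 genes and to AT3G42155, at -2.01 (SE 0.22) with 2 columns at the floor. Only 5 probes of the array had a lower log2 fold change than probe 2890. Genes that share a probe, and close copies that can bind each other's probe, cannot be told apart by these intensities, so the 11 GH9 probes are not 11 independent readings.

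**Figure D2:**
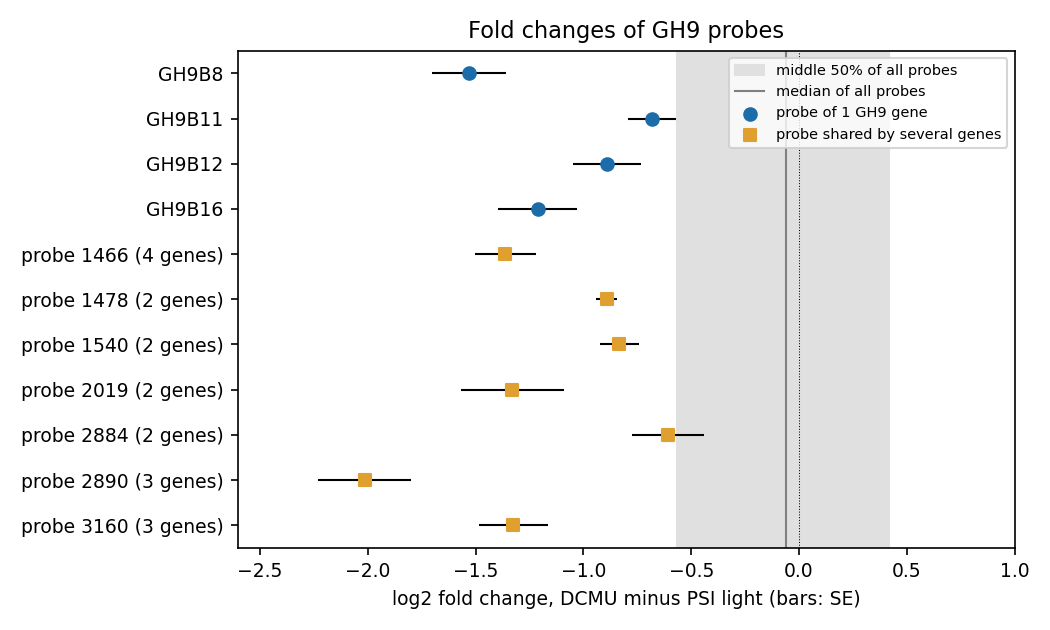
Log2 fold change of DCMU minus PSI light (x axis, bars give the SE from limma) for the 4 GH9 genes with a probe of their own and for 7 probes shared by several genes (y axis). All 11 points lie left of 0, from -2.01 for probe 2890 to -0.61 for probe 2884, while the shaded band holds the middle 50% of all probes, from -0.57 to 0.42.

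Neighbours in the probe numbering were lower as well for 3 of the 4 genes. Among the 50 probes on either side of GH9B11 the median was -0.42 (log2 fold change), and 40 of these 100 probes passed as lower. For GH9B12 the median was -0.38 with 39 passing as lower, and for GH9B8 it was -0.34 with 33. Around GH9B16 the median was 0.00 with 22 passing as lower. Of all probes, 25.0% passed as lower. GH9B11 and GH9B12 stand 10 steps apart in this order, so most of their neighbours are the same probes and not 2 separate sets. Of the 100 neighbours, 5 were lower than GH9B8, 5 lower than GH9B16, 20 lower than GH9B12 and 35 lower than GH9B11. The probes 4 to 10 steps before GH9B8 ran low together, from -1.33, a shared GH9 probe, to -0.80. After subtraction of a running median over each probe and the 50 on either side in the order of their numbers, the log2 fold change was -1.20 (SE 0.15) for GH9B8, -1.19 (SE 0.16) for GH9B16, -0.54 (SE 0.14) for GH9B12 and -0.30 (SE 0.12) for GH9B11. With a window of 51 probes GH9B16 stood at -1.27, GH9B8 at -0.87, GH9B12 at -0.40 and GH9B11 at -0.12. GH9B8 thus moved with the narrower window and GH9B16 changed little, so GH9B16 and not GH9B8 then had the largest change. GH9B11 was past the threshold with neither window and the other 3 genes with both. All 7 of the shared GH9 probes passed as lower after the wider correction, beside 22.4% of all probes, and 5 of 7 with the window of 51, beside 21.9%. The windows also hold other GH9 probes, and the part of probe number in the GH9 values was not tested.

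Single-gene probes within 5 numbers of a GH9 gene did not share 1 direction. Next to GH9B16, PRK, for the Calvin cycle enzyme phosphoribulokinase, rose by 1.20 on the log2 scale (limma, adjusted p = 0.014), and AT2G23890 had a log2 fold change of -0.13 (SE 0.50). Next to GH9B8, PSBY, for a photosystem II subunit, had a value of 0.61, AT2G20920 of 0.44 and AT2G37880 of -0.58, and none of the 3 passed in limma (3 did so at an unadjusted p of 0.05). Next to GH9B11, AT1G11730 had a log2 fold change of -0.47 and AT2G46850 of -0.53, and neither passed (1 of the 2 did so unadjusted). GH9B12 had no such neighbour.

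**Figure D3:**
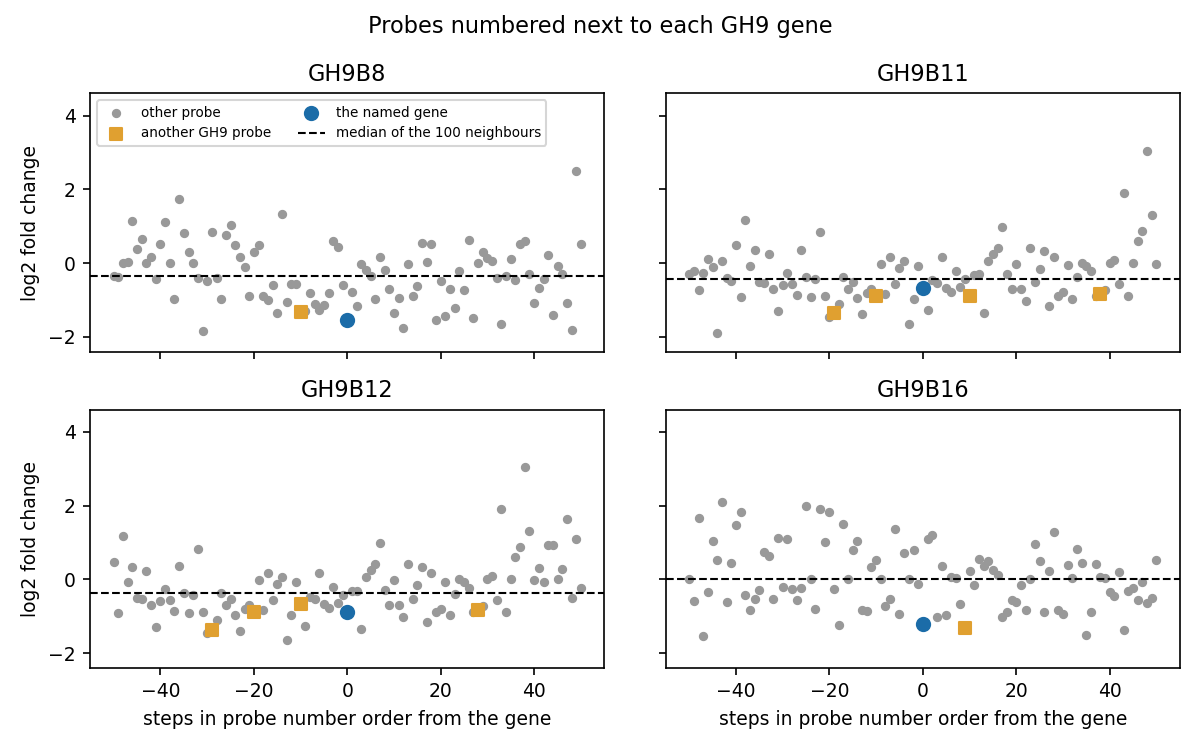
Log2 fold change (y axis) of each GH9 gene and of the 50 probes on either side in probe number order (x axis, steps from the gene); dashed lines give the median of the 100 neighbours. GH9B8 at -1.53 and GH9B16 at -1.21 lie near the lower edge of their neighbours, while GH9B11 at -0.68 lies among neighbours with a median of -0.42.

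How each array was scaled changed the size of these differences and not their direction. The median log2 fold change of all probes was -0.32 with no scaling, -0.23 with equal column totals, 0.00 with median centring and 0.02 with cyclic loess. Relative to that median, GH9B8 stood at -1.38, -1.39, -1.37 and -1.49 in these 4 settings, and GH9B16 at -1.26, -1.26, -1.22 and -1.09. GH9B12 stood at -0.84, -0.84, -0.81 and -0.80, and GH9B11 at -0.74, -0.74, -0.71 and -0.58. Of the probes past the threshold, the share that was lower was 57.9% for quantile normalisation, 73.4% if unscaled and 50.6% for cyclic loess.

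**Figure D4:**
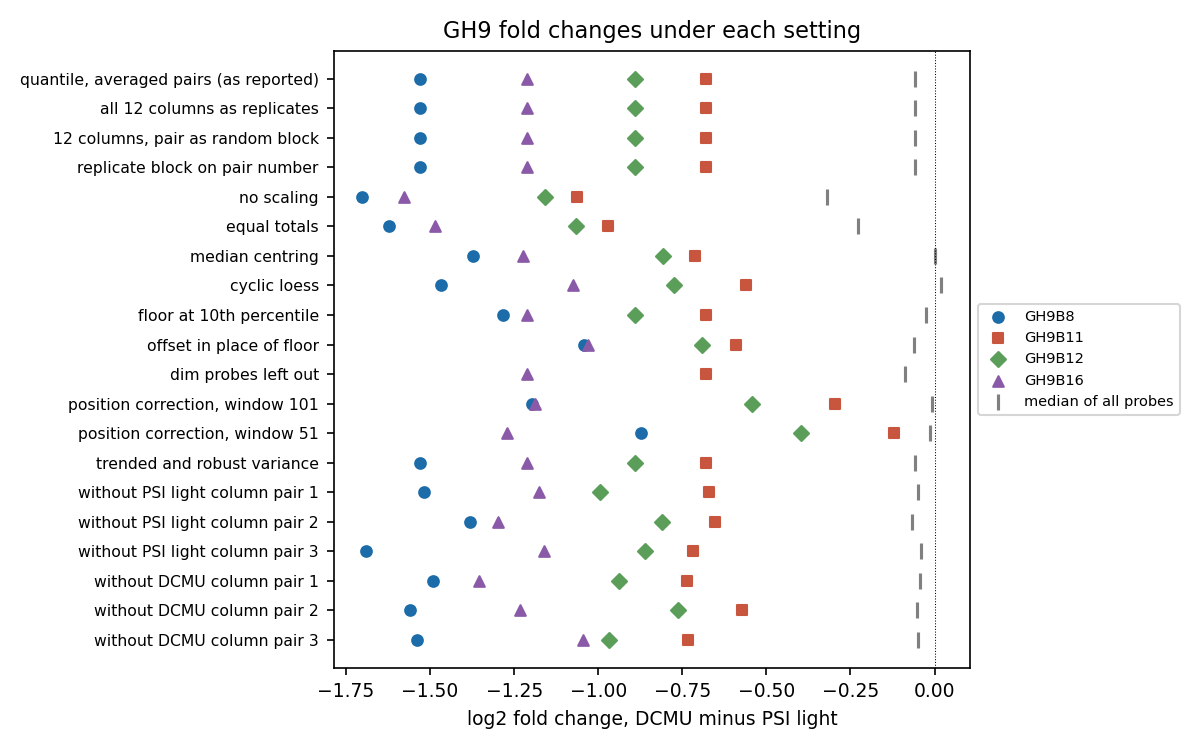
Log2 fold change of DCMU minus PSI light (x axis) of each GH9 gene, and the median of all probes, under each setting of scaling, floor, model and left-out pair of columns (y axis). Every GH9 value lies below 0, and GH9B11 comes nearest to it, at -0.12 with the position correction over 51 probes.

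Other genes of wall polysaccharides were looked up by name, and hardly any of those found had a probe of their own. Lists were matched to the symbols and synonyms of the reference table, so wall genes known there only by locus are left out. How many were missed in this way was not counted. The list headed cellulose synthesis, which also took in a cellulose synthase-like gene, held 77 genes. The others held 95 other glycosyl hydrolases, 82 expansins and xyloglucan enzymes, 64 pectin enzymes and 96 genes for structural wall proteins and xylan. Of all these listed genes, 1 had a single-gene probe. This was CSLA01 (AT4G16590) of the cellulose synthase-like A family, whose members make mannan backbones of the wall. CSLA01 stood at 0.13, 0.53 and -0.33 on the log2 scale in the averaged pairs of PSI light and at -0.99, -1.05 and -1.31 with DCMU. All 3 pairs with DCMU were below all 3 in PSI light, as in 31.8% of all probes. CSLA01 fell by 1.22 (SE 0.24, adjusted p = 0.0153 from limma over all probes). The wall lists were chosen with earlier results of these data known, so these values are a description as well. CSLA01 missed the threshold when columns 1 and 2 of PSI light were left out (adjusted p = 0.0509) and when columns 5 and 6 of DCMU were (adjusted p = 0.0505). After the position corrections it stood at -0.80 and, with the window of 51, at -0.69 (adjusted p = 0.0228 and 0.041). Of the other wall lists, 4 probes were annotated to several genes of 1 list. Of these 4, 1 passed as higher, a probe of the cellulose synthesis list at 0.81, and 3 passed as lower. Among the lower ones, another probe of that list stood at -0.70 and a probe of other glycosyl hydrolases at -0.91. A probe of expansins or xyloglucan enzymes stood at -0.37. Beside them, 43.1% of all probes passed in either direction and 25.0% passed as lower. With only 4 such probes, from lists chosen with earlier results known, nothing is read from their count.

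Single-gene probes with the values most like each GH9 gene were named by the highest Pearson correlation over the 6 averaged pairs. For GH9B8 these were AT5G17280 (r = 0.997) and DI21 (r = 0.994), a gene named for its induction by drought, with log2 fold changes of -0.89 and -1.02. GH9B16 was most like AT4G20760 and AT2G43180, each at r = 0.990, with log2 fold changes of -1.68 and -1.36. GH9B11 was most like AT1G70180 (r = 0.993) and AT1G65090 (r = 0.993), and GH9B12 like AT4G14050 and AT3G57630 (both r = 0.979). These 4 had log2 fold changes of -0.88 to -0.78. The points fall into the 2 groups and share their arrays and scaling, and between 72 and 100 of the 692 probes with 1 gene had r above 0.9 with a given GH9 gene.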

How the data were processed

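The members and the lists of wall genes were chosen with earlier results of these data known. The deposited intensity values, linear from 0 to 100 per column, came with no statement of background correction or image analysis in the sources used here, and the authors' column medians differ. They were quantile normalised, raised to a floor at the 5th percentile of positive values (0.110) where lower, and log2 transformed. The floor understates the change of dim probes. Pairs of columns were averaged, and DCMU was compared with PSI light in limma 3.58.1 (R 4.3.3; lmFit, eBayes) over 3439 probes with Benjamini-Hochberg adjustment at 0.05. The model was run on simulated data with independent normal values and fewer changed probes than passed here. Those settings differ from the real data, so nothing about these results is read from that run. Probe names came from the platform's annotation, updated with TAIR10.1: 692 probes had 1 gene, 870 several and 1877 none named here. The files name no build, so no coordinates are given. Named genes were the 4 members and every gene of the wall lists with a single-gene probe. The 2 most correlated genes per member and single-gene probes within 5 numbers of a member were named too. Alternatives were other scalings, floors, models, position corrections and left-out pairs. The deviations of same-numbered pairs of the groups correlated at 0.099 to 0.306. The main fit did not use the numbers as pairs, and a fit with them as a block was among the alternatives. Figures used matplotlib 3.10.9 (Python 3.11.15).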

Additional observations from a re-analysis of the deposited data

Results flagged for a closer look

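In 24 groups of 6 columns (the 4 GH9 genes, the 7 shared GH9 probes and CSLA01, each in both groups), 2 held a column far from the others. By chance alone the rule picks out about 1 in 20 groups of 6 independent values. The columns averaged as pairs are not independent, so that rate need not hold here. The shared probe 1540 stood at -2.90 on the log2 scale in column 5 with DCMU and at the floor of -3.19 in the other columns, so the gap made up the whole range (gap over range 1). CSLA01 with DCMU stood at -1.49 in column 5, with the rest between -1.12 and -0.92 (gap over range 0.638). None of the 4 GH9 genes had such a column.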

How the results depend on the processing

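All 4 GH9 genes stayed lower with DCMU in every setting in which they were tested, and GH9B8, GH9B12 and GH9B16 stayed past the threshold; a direction known when genes are picked is no sign of stability. Without dim probes GH9B8 and GH9B12 were not tested, and 798 probes passed (336 higher, 462 lower), with fewer probes tested. GH9B8 moved to -1.28 with the floor at the 10th percentile, -1.04 with an offset, and -1.20 and -0.87 with position corrections by 50 probes on either side and by a window of 51. GH9B11 moved to -1.06 with no scaling, -0.97 with equal totals, and -0.30 and -0.12 with those corrections, past the threshold with neither. GH9B12 moved to -1.16 with no scaling, -0.54 and -0.40 with those corrections. GH9B16 moved to -1.58 with no scaling and -1.48 with equal totals. The median of the 4 moved to -1.37, -1.28 and, with the window of 51, -0.64. The cause was not tested. Without 1 averaged pair, 1144 to 1294 probes passed, with 2 fewer columns. The median of the 4 was then -1.15 to -1.0, and 0 to 1 gene of the wall lists passed (CSLA01). Without 1 pair GH9B8 was -1.69 to -1.38, GH9B11 -0.74 to -0.57, GH9B12 -1.0 to -0.76 and GH9B16 -1.35 to -1.05. The replicate block on the number of the pair gave 1394 probes (580 higher, 814 lower). It raised the adjusted p-values of the 4 genes and of CSLA01 and changed no call among them. With 12 columns as replicates 2109 passed, with p-values that are too small.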
